A study of Rattus norvegicus with 8 samples.

Results

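The genes described here are 34 enzymes and factors of mitochondrial and peroxisomal fatty acid oxidation, given as a list of gene symbols. Probes were assigned to them through the RefSeq accession that the array design pairs with each probe, and all 34 were measured, of 15168 gene symbols on the array. They were sorted by textbook localisation into 19 mitochondrial genes, 13 peroxisomal genes and 2 genes whose products are found in both compartments (Eci2 and Crat). The study profiled total RNA of frozen liver from male rats aged 22 weeks on 8 single-colour Agilent arrays. In the high-fat group (5 arrays), labelled as non-alcoholic fatty liver disease, rats had received a high-fat diet for 14 weeks. In the chow group (3 arrays), labelled as the control, rats had received standard chow for the same 14 weeks. The labels name no strain, fat content of the diet or measure of steatosis, and do not say whether each array came from a separate animal, so every p-value below weighs a difference against the spread of these 8 samples, part of which may be technical.

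Fatty acids enter the mitochondrial matrix as carnitine esters, made by carnitine palmitoyltransferase 1 on the outer membrane and turned back into acyl-CoA by carnitine palmitoyltransferase 2 on the inner membrane. Each turn of β-oxidation then runs through a dehydrogenase, a hydratase, a second dehydrogenase and a thiolase, and electrons from the first step pass to the respiratory chain through the electron transfer flavoprotein (ETF). Peroxisomes shorten very long and branched chains with their own set of enzymes, whose first step is an oxidase that makes hydrogen peroxide. In rodent liver many of these genes are known targets of the nuclear receptor PPARα.

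Values below are log2 of the processed Cy3 signal minus the 75th percentile of that array, so a value of 0 is a probe as bright as the 75th percentile probe. All 34 genes were well above background on all 8 arrays. The 75th percentile signal was 725 to 1045 on the high-fat arrays and 278 to 559 on the chow arrays, and 79.1% to 92.8% of probes were above background under the high-fat diet against 66.9% to 71.8% under chow. The arrays were read in 3 scans: scan 1 held high-fat arrays 2, 3 and 5, scan 2 held the 3 chow arrays, and scan 3 held high-fat arrays 1 and 4. No scan held arrays of both diets, so scan and diet cannot be told apart in any comparison of the diets. Liver RNA was profiled in bulk, where fewer cells of a type and less RNA per cell cannot be told apart.

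None of the 34 genes passed the test between diets (limma, Benjamini-Hochberg adjusted p threshold 0.05 over 22872 features), where 3.56% of all features passed, 3.07% higher (703 features) and 0.49% lower (112 features) under the high-fat diet. Quantile normalization gave 798 higher (3.49%) and 294 lower (1.29%) features and 1 passing member, which was higher. With normexp background correction before it there were 1038 higher (4.54%) and 1077 lower (4.71%) features, and 2 members passed as higher and 2 as lower. With array weights 9 members passed, all lower, where 3.17% of all features passed as lower (724 features). In the authors' value table Pecr passed as higher, where 3.63% of features passed as higher and 1.36% as lower. Without the arrays of scan 3, which was made on a later day, Acadvl and Etfb passed as lower, where 1.67% of features did. At an unadjusted p under 0.05, 15 of the 34 were lower, against 9.37% of all features, and 1 was higher, against 10.8%. The estimates leaned to one side. Of the 34 log2 fold changes (high-fat minus chow), 27 were negative, 14 of 19 mitochondrial, 11 of 13 peroxisomal and both of the genes of both compartments, whereas 50.5% of all features were negative. In 12 of the 34 genes every high-fat array lay below every chow array (35.3%, background 9.17%), and in 1 gene, Pecr, every high-fat array lay above (background 7.93%). The median fold change was −0.39 over the 34 genes and −0.01 over all features.

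These genes are bright on liver arrays: the median member was brighter than 94.6% of all features. Among 2052 features whose mean level lay in the interquartile range of the members' levels, between 2.77 and 5.17, 76.1% had negative fold changes, 25.7% had every high-fat array below every chow array, and the median was −0.21. At an unadjusted p under 0.05 (limma), 514 of these 2052 features were lower and 82 were higher. The part of brightness in the members' values was not tested.

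**Figure D1:**
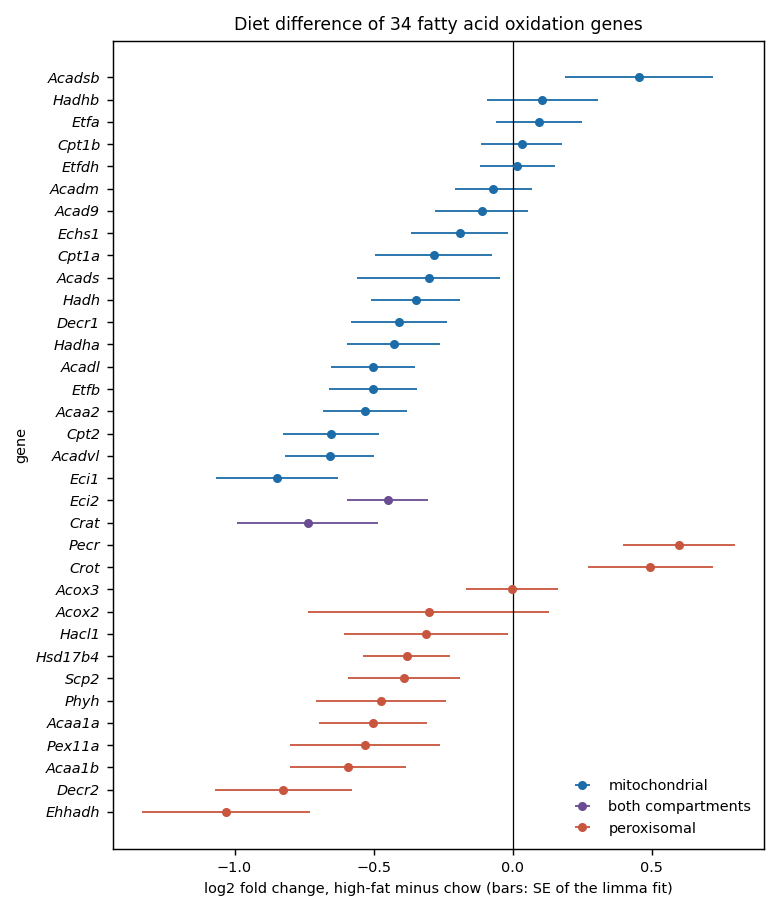
Log2 fold change (high-fat minus chow) of each of the 34 genes with its standard error from the limma fit, by compartment. Points left of 0 are genes with a lower mean under the high-fat diet: 27 of the 34, from −1.03 for Ehhadh, while Pecr lies farthest right at 0.60.

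Promoter windows of these genes are shown first for the members around which the results turn. RefSeq promoters (assembly GRCr8, the 250 bases before the annotated start) were found for 30 of the 34 genes, all but Cpt1b, Acadl, Acaa2 and Decr1. Acadvl and Eci1 are the mitochondrial members with the smallest p, both with every high-fat array below chow, and Pecr and Crot are the peroxisomal members with the highest estimates. Capitals mark the nuclear receptor core motif AGGTCA and the GC box GGGCGG on either strand.

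Acadvl, chr10:55236706-55236955, minus strand: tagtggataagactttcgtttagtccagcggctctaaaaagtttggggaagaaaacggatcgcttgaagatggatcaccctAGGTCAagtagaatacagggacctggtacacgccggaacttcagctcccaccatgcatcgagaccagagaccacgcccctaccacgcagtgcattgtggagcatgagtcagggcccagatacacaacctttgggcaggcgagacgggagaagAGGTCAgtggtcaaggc
Eci1, chr10:13961000-13961249, plus strand: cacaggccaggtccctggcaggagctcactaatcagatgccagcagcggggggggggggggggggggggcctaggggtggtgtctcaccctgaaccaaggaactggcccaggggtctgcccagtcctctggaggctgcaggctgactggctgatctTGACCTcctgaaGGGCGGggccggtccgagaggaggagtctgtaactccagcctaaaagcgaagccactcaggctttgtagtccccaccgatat
Pecr, chr9:81375807-81376056, minus strand: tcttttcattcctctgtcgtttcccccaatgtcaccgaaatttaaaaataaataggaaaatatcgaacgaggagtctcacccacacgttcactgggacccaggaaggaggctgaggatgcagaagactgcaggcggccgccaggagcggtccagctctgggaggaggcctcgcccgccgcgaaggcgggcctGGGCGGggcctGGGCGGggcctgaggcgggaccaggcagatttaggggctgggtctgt
Crot, chr4:26052874-26053123, plus strand: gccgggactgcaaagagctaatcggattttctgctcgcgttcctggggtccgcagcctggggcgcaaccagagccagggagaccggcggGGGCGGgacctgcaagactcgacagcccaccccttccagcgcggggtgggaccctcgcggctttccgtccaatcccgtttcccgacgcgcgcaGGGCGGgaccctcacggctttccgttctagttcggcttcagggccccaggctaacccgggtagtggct

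The Acadvl window holds 2 core motifs and the Eci1 window holds 1 core motif and 1 GC box. The Pecr and Crot windows each hold 2 GC boxes and no core motif. The windows of Ehhadh, Decr2, Crat and Cpt2, which also had low estimates, hold no core motif either. Over the 30 promoters, searched on both strands, AGGTCA was found in 4 (13.3%, in Acadvl, Eci1, Echs1 and Hsd17b4), against 14.1% of 33465 rat promoters of the same length. The direct repeat of this core motif with 1 base between the copies is the form bound by PPARα with its partner RXR. An exact copy of it was in none of the 30 windows and in 0.0508% of all promoters. At so low a share none is the likely count for any 30 windows, so its absence does not show that these genes lack such sites. GGGCGG was in 21 of the 30 (70.0%) against 30.5% of all promoters, and TATAAA was in 1 (3.33%) against 12.9%. Median GC content was 60.4% in the members' windows and 51.2% over all promoters. A match is a description of letters in the window and does not show that a factor binds there.

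In the carnitine steps every high-fat array lay below every chow array for the inner membrane enzyme but not for the outer. Cpt2, the inner membrane transferase, read 3.63, 3.43, 3.54, 3.18 and 3.07 on the high-fat arrays, in order 1 to 5, and 4.00, 3.90 and 4.17 on the chow arrays, 1 to 3. All 5 high-fat arrays lay below all 3 chow arrays, at 3.37 ± 0.24 (SD, n = 5) against 4.02 ± 0.13 (SD, n = 3). The fold change was −0.65 ± 0.17 (SE; limma adjusted p = 0.0833), 1.57-fold lower. Cpt1a, the liver form of the outer membrane enzyme and the rate-controlling step of mitochondrial entry, read 2.63, 2.60, 3.06, 2.29 and 2.18 on the high-fat arrays, in order 1 to 5, and 2.77, 2.81 and 2.93 on the chow arrays, 1 to 3. High-fat array 3 was above every chow array, and the fold change of −0.28 ± 0.21 (SE; limma adjusted p = 0.499) was small beside the spread. Cpt1b, the muscle form, had a fold change of 0.03 ± 0.15 (SE), which turned to −0.20 under normexp and −0.05 under quantile normalization, at levels of −1.49 to −1.09 on the 8 arrays.

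Crat and Crot, which move short and medium chains between CoA and carnitine, had estimates of opposite sign. Crat, carnitine acetyltransferase, read 3.05, 2.78, 2.69, 2.12 and 2.00 under the high-fat diet and 3.35, 3.23 and 3.21 under chow, with every high-fat array below chow and a fold change of −0.74 ± 0.25 (SE; limma adjusted p = 0.156). Crot, the peroxisomal carnitine octanoyltransferase that exports shortened chains, read 5.96, 5.63, 5.25, 5.95 and 5.30 under the high-fat diet and 4.84, 5.19 and 5.33 under chow. Its highest values were on high-fat arrays 1 and 4, and high-fat array 3 and 5 values lay within the chow range, with a fold change of 0.49 ± 0.22 (SE; limma adjusted p = 0.262). Within each array, Crot minus Crat was 2.56 to 3.83 under the high-fat diet and 1.49 to 2.12 under chow, without overlap.

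Among the acyl-CoA dehydrogenases, which catalyse the first step for successive chain lengths, the long-chain members had the lowest estimates. Acadvl, the membrane-bound very long-chain enzyme, read 4.01, 3.87, 3.83, 3.69 and 3.76 on the high-fat arrays, in order 1 to 5, and 4.51, 4.21 and 4.73 on the chow arrays, 1 to 3. The groups did not overlap, at 3.83 ± 0.12 (SD, n = 5) against 4.49 ± 0.26 (SD, n = 3), and the fold change was −0.66 ± 0.16 (SE; limma adjusted p = 0.0667), 1.58-fold lower. Acadl, the long-chain enzyme, was tight under the high-fat diet, at 6.03, 6.01, 5.93, 5.92 and 5.97, and more spread under chow, at 6.73, 6.2 and 6.48. Its fold change was −0.50 ± 0.15 (SE; limma adjusted p = 0.115), again without overlap. Acadm, the medium-chain enzyme, read 4.70, 4.48, 4.55, 4.65 and 4.37 under the high-fat diet and 4.73, 4.56 and 4.57 under chow, and the ranges overlapped almost whole, with a fold change of −0.07 ± 0.14 (SE; limma adjusted p = 0.836) that turned to 0.01 under normexp and 0.13 under quantile normalization. The short-chain enzyme Acads had a fold change of −0.30 ± 0.26 (SE). Acad9, which also serves complex I assembly, was at −0.11 ± 0.17, or 0.02 under quantile normalization, and Acadsb, the short/branched-chain enzyme that acts in isoleucine breakdown, was at 0.45 ± 0.27. Acadl minus Acadm within each array was 1.27 to 1.60 under the high-fat diet and 1.65 to 2.00 under chow.

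The trifunctional protein, which carries out the remaining steps on long chains, has an α subunit (Hadha, hydratase and dehydrogenase) and a β subunit (Hadhb, thiolase). The 2 genes lie head to head, and their RefSeq promoter windows share 200 bases. The Hadha window is printed to show this overlap, with the shared bases in capitals.

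Hadha, chr6:31907551-31907800, plus strand: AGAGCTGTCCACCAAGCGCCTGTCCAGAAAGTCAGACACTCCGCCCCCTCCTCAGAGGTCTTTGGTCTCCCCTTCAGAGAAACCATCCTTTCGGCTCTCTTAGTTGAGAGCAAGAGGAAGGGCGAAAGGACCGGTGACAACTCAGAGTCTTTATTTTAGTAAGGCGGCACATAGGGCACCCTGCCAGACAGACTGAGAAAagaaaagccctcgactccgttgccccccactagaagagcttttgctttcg

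The estimates for the subunits had opposite signs. Hadha read 2.34, 2.02, 2.34, 2.58 and 2.15 under the high-fat diet and 2.75, 2.54 and 2.85 under chow, with only high-fat array 4 reaching the chow range, and a fold change of −0.43 ± 0.17 (SE; limma adjusted p = 0.203). Its second probe gave −0.36. Hadhb read 2.67, 2.34, 2.65, 2.45 and 1.96 under the high-fat diet and 2.21, 2.54 and 2.16 under chow, and high-fat arrays lay on both sides of chow, with a fold change of 0.11 ± 0.20 (SE; limma adjusted p = 0.824). Hadha minus Hadhb within each array was −0.33 to 0.19 under the high-fat diet and 0.00 to 0.69 under chow, which overlapped. The matrix enzymes for shorter chains had fold changes of −0.19 ± 0.17 (SE) for the hydratase Echs1 and −0.35 ± 0.16 for the dehydrogenase Hadh. Acaa2, the matrix thiolase, read 4.53, 4.47, 4.67, 4.42 and 4.18 under the high-fat diet and 5.08, 4.89 and 5.00 under chow. Its groups did not overlap, at 4.46 ± 0.18 (SD, n = 5) against 4.99 ± 0.09 (SD, n = 3), with a fold change of −0.53 ± 0.15 (SE; limma adjusted p = 0.0984).

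ETF passes electrons from the acyl-CoA dehydrogenases to its oxidoreductase, Etfdh. The β subunit, Etfb, read 5.40, 5.15, 5.00, 5.36 and 5.10 on the high-fat arrays, in order 1 to 5, and 5.73, 5.51 and 5.86 on the chow arrays, 1 to 3, without overlap and with a fold change of −0.50 ± 0.16 (SE; limma adjusted p = 0.126). The α subunit, Etfa, had a fold change of 0.09 ± 0.16 (SE) and Etfdh one of 0.02 ± 0.13, the latter fitted on 4 high-fat arrays because its spot was an outlier on high-fat array 4. Etfb minus Etfdh was 0.95 to 1.27 on those 4 arrays and 1.5 to 1.84 under chow.

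Auxiliary enzymes bring the double bonds of unsaturated chains into a position that the spiral can use. Eci1, the mitochondrial enoyl-CoA isomerase, read 4.08, 3.89, 4.58, 3.81 and 3.69 on the high-fat arrays, in order 1 to 5, and 4.90, 4.67 and 5.01 on the chow arrays, 1 to 3. High-fat array 3 came nearest to chow, yet the groups did not overlap, at 4.01 ± 0.35 (SD, n = 5) against 4.86 ± 0.18 (SD, n = 3), with a fold change of −0.85 ± 0.22 (SE; limma adjusted p = 0.0791), 1.80-fold lower. Eci2, the isomerase of both compartments, read 4.62, 4.43, 4.39, 4.41 and 4.14 under the high-fat diet and 4.91, 4.76 and 4.87 under chow, also without overlap, with a fold change of −0.45 ± 0.15 (SE; limma adjusted p = 0.138). Decr1, the mitochondrial dienoyl-CoA reductase, read 5.97, 5.81, 5.65, 5.86 and 5.54 under the high-fat diet and 6.29, 5.87 and 6.37 under chow, where chow array 2 lay within the high-fat range, with a fold change of −0.41 ± 0.17 (SE; limma adjusted p = 0.235). Decr2, its peroxisomal counterpart, read 1.16, 1.00, 2.03, 1.34 and 1.11 under the high-fat diet and 2.09, 2.37 and 2.00 under chow. High-fat array 3 alone reached the chow range, and the fold change was −0.82 ± 0.25 (SE; limma adjusted p = 0.113).

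**Figure D2:**
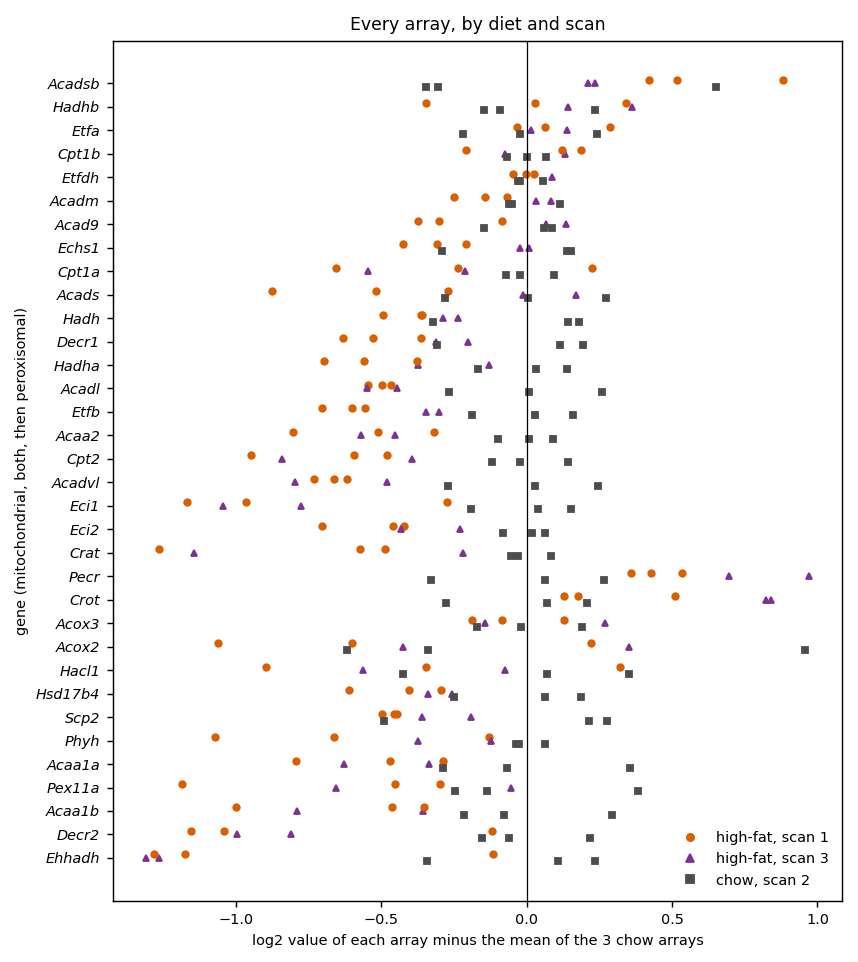
Log2 value of each gene on each of the 8 arrays, minus the chow mean of that gene, by diet and scan. For Cpt2, Acadvl, Acaa2 and Eci1 all 5 high-fat arrays lie left of the 3 chow arrays, for Pecr all lie right, and for Ehhadh and Decr2 only high-fat array 3 reaches the chow range.

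In the peroxisome, Ehhadh, the L-bifunctional enzyme and a classical PPARα target of rodent liver, had the lowest estimate of all 34 genes. It read 2.16, 2.24, 3.30, 2.11 and 2.14 on the high-fat arrays, in order 1 to 5, and 3.66, 3.53 and 3.08 on the chow arrays, 1 to 3. High-fat arrays 1, 2, 4 and 5 lay between 2.11 and 2.24, below all chow arrays, while high-fat array 3 lay within the chow range. The means were 2.39 ± 0.51 (SD, n = 5) against 3.42 ± 0.30 (SD, n = 3), and the fold change was −1.03 ± 0.30 (SE; limma adjusted p = 0.108), 2.04-fold lower. Without high-fat array 3 the fold change was −1.26 (limma adjusted p = 0.0149), and those of Decr2 and Eci1 were −1.0 (adjusted p = 0.0234) and −0.99 (adjusted p = 0.0258). In that fit 3 of the 34 passed as lower, where 0.389% of all features did (89 features). High-fat array 3 held the highest high-fat value of each of these 3 genes, so leaving it out lowers their high-fat means. The fit was singled out after the values were seen, and its p-values are not read as support. Hsd17b4, the D-bifunctional enzyme, which handles branched chains and bile acid precursors, read 5.68, 5.64, 5.53, 5.59 and 5.32 under the high-fat diet and 6.0, 5.68 and 6.12 under chow, with high-fat array 1 next to chow array 2 and a fold change of −0.38 ± 0.16 (SE; limma adjusted p = 0.223).

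The peroxisomal thiolases are near-identical copies, so which of them a probe read is uncertain. Acaa1a read 5.02, 4.88, 5.06, 4.72 and 4.56 under the high-fat diet and 5.28, 5.07 and 5.71 under chow, with a fold change of −0.50 ± 0.19 (SE; limma adjusted p = 0.199). The Acaa1b probe read 3.63, 3.52, 3.63, 3.19 and 2.98 under the high-fat diet and 3.90, 3.77 and 4.27 under chow, with a fold change of −0.59 ± 0.21 (SE; limma adjusted p = 0.164). In neither did the groups overlap, and the second probes gave −0.40 for Acaa1a and −0.48 for Acaa1b. Scp2, which includes the thiolase for branched chains, had a fold change of −0.39 ± 0.20 (SE).

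Acox2, the branched-chain oxidase of bile acid synthesis, read 4.33, 4.20, 2.92, 3.56 and 3.38 on the high-fat arrays, in order 1 to 5, and 3.64, 3.36 and 4.94 on the chow arrays, 1 to 3. Values within each diet spanned more than 1 log2 unit, and the fold change was −0.30 ± 0.43 (SE; limma adjusted p = 0.759), or 0.08 under normexp with quantile normalization and 0.18 without chow array 3. Acox3, another oxidase of this family, read −2.34, −2.39, −2.28, −1.93 and −2.07 under the high-fat diet and −2.22, −2.01 and −2.37 under chow, with no separation and a standard error of 0.16. Phyh, the hydroxylase that starts α-oxidation of phytanic acid, read 4.24, 3.95, 4.48, 4.49 and 3.54 under the high-fat diet and 4.58, 4.68 and 4.59 under chow, without overlap and with a fold change of −0.47 ± 0.23 (SE; limma adjusted p = 0.298). Hacl1, the lyase that follows it, had a fold change of −0.31 ± 0.29 (SE), and its other probe gave −0.61. Pex11a, a PPARα target that takes part in peroxisome division, had a fold change of −0.53 ± 0.27.

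Pecr, the peroxisomal trans-2-enoyl-CoA reductase of chain elongation, was the single member with every high-fat array above every chow array. It read 5.02, 4.86, 4.75, 5.30 and 4.68 on the high-fat arrays, in order 1 to 5, and 4.39, 4.00 and 4.59 on the chow arrays, 1 to 3, or 4.92 ± 0.24 (SD, n = 5) against 4.33 ± 0.30 (SD, n = 3). The fold change was 0.60 ± 0.20 (SE; limma adjusted p = 0.148), 1.51-fold higher. Quantile normalization in place of percentile scaling gave 0.79 (limma adjusted p = 0.014), which passed.

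The mitochondrial and peroxisomal sets were then compared array by array. With each gene set to the midpoint of its diet means, the mean of the 19 mitochondrial genes was −0.32 to −0.0044 on the high-fat arrays and 0.07 to 0.19 on the chow arrays. The mean of the 13 peroxisomal genes was −0.47 to −0.016 and 0.05 to 0.30. The mitochondrial minus the peroxisomal mean was 0.03 ± 0.08 (SD, n = 5) under the high-fat diet and −0.03 ± 0.08 (SD, n = 3) under chow, with overlapping arrays, given as a description without a test. The median fold change was −0.30 for the mitochondrial and −0.39 for the peroxisomal genes. Under quantile normalization the medians were −0.11 and −0.14, and those for normexp background correction followed by quantile normalization were −0.12 and −0.17. Under normexp alone the median of all features shifted to −0.29, and that of the 34 genes was −0.28. Features in the brightness range of the members had a median of −0.11 there, against −0.21 in the main fit. The members' median minus that of these features was −0.17 in both, and −0.10 under quantile normalization.

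**Figure D3:**
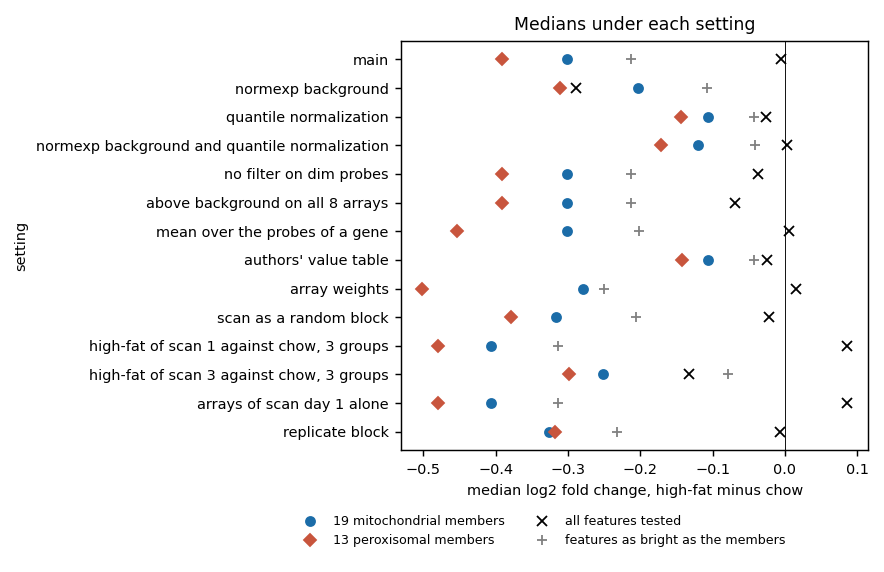
Median log2 fold change (high-fat minus chow) of the mitochondrial genes, the peroxisomal genes and the comparison sets under each way of processing the arrays. The medians of both member groups lie below 0 in every setting drawn and come nearest to 0, at −0.11 and −0.14, under quantile normalization and in the authors' value table, while normexp also brings the median of all features to −0.29. Features as bright as the members had a median of −0.11 under normexp.

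The arrays of a diet were not level with one another. Over the 33 genes with a value on every array, high-fat array 5 was the lowest of the high-fat arrays in 18 (54.5%, against 12.9% of all features), and high-fat array 1 the highest in 17 (51.5%, against 13.7%). Chow array 2 was the lowest chow array in 20 (60.6%, against 46.8%). Leaving out chow array 2 moved the peroxisomal median from −0.39 to −0.61.

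**Figure D4:**
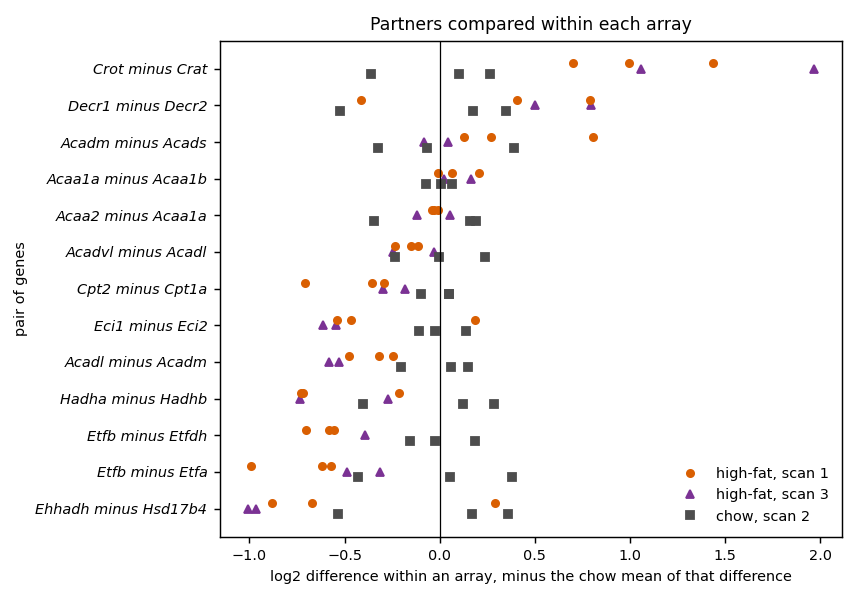
Difference between paired genes within each array, minus the chow mean of that difference, for 13 pairs of related members chosen after their values were seen. High-fat and chow arrays do not overlap for Crot minus Crat, which is higher under the high-fat diet by 1.23, or for Etfb minus Etfdh, Acadl minus Acadm and Cpt2 minus Cpt1a, which are lower by 0.37 to 0.56.

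Within-array differences between related members do not depend on the scaling factor of an array, but a shift that varies with brightness would not cancel in them. Partners can differ in brightness, as Crot and Crat do, with high-fat means of 5.62 and 2.53. The part of brightness in these differences was not tested. The 13 pairs were chosen after the values were seen and carry no test. The high-fat minus chow difference was 1.23 for Crot minus Crat, −0.56 for Etfb minus Etfdh, −0.43 for Acadl minus Acadm and −0.37 for Cpt2 minus Cpt1a, each without overlap. In the other 9 pairs the arrays of the diets overlapped, among them Ehhadh minus Hsd17b4 at −0.65, Etfb minus Etfa at −0.60 and Hadha minus Hadhb at −0.53.

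High-fat arrays of different scans were also compared with each other, since they share the diet. None of the 34 genes passed between the 2 high-fat arrays of scan 3 and the 3 of scan 1 (limma), whereas 26.2% of 22852 features did, 5.64% higher and 20.6% lower in scan 3. At an unadjusted p under 0.05, Acads at 0.63 and Crot at 0.56 were higher in scan 3, 2 of 34 against 10.3% of all features. The median difference was 0.12 for the members and −0.14 for all features. Against the same 3 chow arrays, each scan gave its own values. The scan 1 arrays gave a median of −0.49 with 28 of 34 negative, and 5 genes passed as lower (background 3.54%) and none as higher (background 12.9%): Etfb at −0.62 (limma adjusted p = 0.0229), Acadvl at −0.67 (adjusted p = 0.0355), Eci2 at −0.53 (adjusted p = 0.0389), Cpt2 at −0.67 (adjusted p = 0.0447) and Hadha at −0.54 (adjusted p = 0.0478). For the scan 3 arrays the median was −0.27 with 23 of 34 negative. There Ehhadh passed as lower, at −1.29 (adjusted p = 0.0466, background 8.8%), and Crot and Pecr as higher, both at 0.83 (adjusted p = 0.0289 and 0.0317, background 6.88%). Features in the brightness range of the members also differed by scan, with medians against chow of −0.31 for scan 1 and −0.08 for scan 3. The members' median minus that of these features was −0.18 for scan 1 and −0.19 for scan 3.

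**Figure D5:**
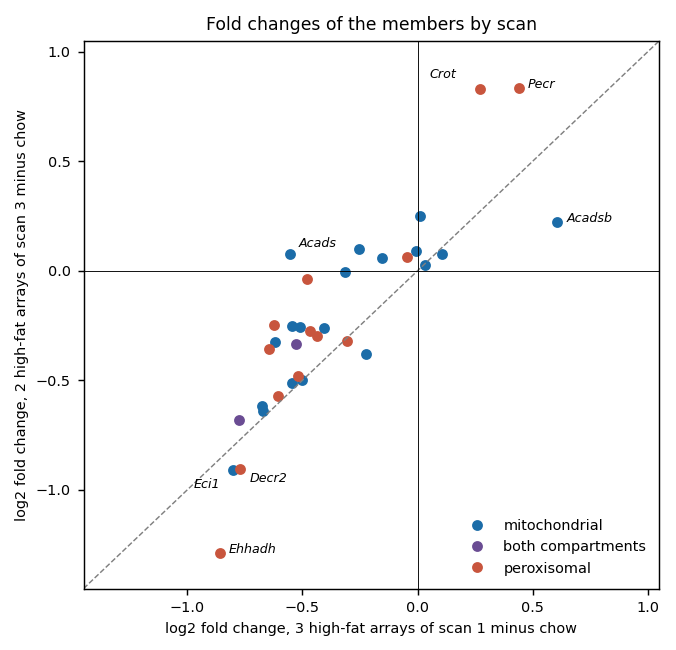
Log2 fold change of each gene for the 3 high-fat arrays of scan 1 (horizontal) and the 2 of scan 3 (vertical), both against the same 3 chow arrays, which couples the axes. Most genes lie in the lower left, with medians of −0.49 and −0.27, and Pecr and Crot reach 0.83 on the vertical axis.

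Other genes of the pathway were read from lists that were chosen with earlier results of these data known. Of 7 genes of carnitine supply and malonyl-CoA control, 1 passed, lower (list median −0.30), where 0.49% of all features did: Acacb, the mitochondrial acetyl-CoA carboxylase whose malonyl-CoA inhibits carnitine palmitoyltransferase 1. It read −2.43, −2.11, −2.26, −2.36 and −2.19 under the high-fat diet and −0.78, −1.48 and −1.62 under chow, with a fold change of −0.98 ± 0.21 (SE; limma adjusted p = 0.0405). None of 14 measured genes among 19 listed for other mitochondrial acyl-CoA and propionate enzymes passed, with a median of −0.11. At an unadjusted p under 0.05, 3 of the 14 were lower, against 9.37% of all features. The smallest p there belonged to Hsd17b10, a dehydrogenase of branched chains, at −0.48 (limma adjusted p = 0.0906), and to Ech1, the dienoyl-CoA isomerase, at −0.86 (adjusted p = 0.105).

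Of 29 measured genes among 35 listed for other peroxisomal enzymes and transporters none passed, 4 were lower at an unadjusted p under 0.05 (against 9.37% of all features), and the median was −0.25. Besides Ech1, which is on this list too, Abcd3, an acyl-CoA transporter of the peroxisomal membrane, had the smallest p, at −0.59 (limma adjusted p = 0.118). The 15 measured peroxins of 16, which build the organelle, had a median of −0.15 and none passed (5 lower and 1 higher unadjusted, against 9.37% and 10.8% of all features). Pex26, which anchors the import ATPases, had the smallest p among them, at 2.56 ± 0.58 (SE; limma adjusted p = 0.0533), and read −0.26, −2.37, −2.36, −0.27 and −2.31 under the high-fat diet and −4.05, −4.24 and −3.94 under chow. Its high-fat values split by scan, at −0.26 and −0.27 on the 2 arrays of scan 3 and from −2.37 to −2.31 on those of scan 1, a difference of 2.08 (adjusted p = 0.000884). Pex6, one of those ATPases, was at −0.55 (adjusted p = 0.115).

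The 16 measured regulators of 21 had a median of −0.02 and none passed (1 lower and 1 higher unadjusted, against 9.37% and 10.8% of all features). The smallest p belonged to Fgf21, a fasting hormone induced by PPARα, at −1.14 (limma adjusted p = 0.173), where chow array 3 at 2.49 stood above the other chow arrays at 0.77 and 1.09, and to Prkaa2, a catalytic subunit of AMP-activated kinase, at 0.47 (adjusted p = 0.201). Ppara itself read −3.37, −3.28, −3.34, −2.99 and −3.14 under the high-fat diet and −2.25, −3.50 and −2.74 under chow, with a fold change of −0.39 ± 0.26 (SE; limma adjusted p = 0.45) and overlapping groups.

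Markers of liver cell types were set beside these results. All 12 hepatocyte markers were above background on all 8 arrays and none passed, with a median of −0.37 and a summed level of 811 to 933 times the 75th percentile signal under the high-fat diet and 835 to 1339 under chow. Kupffer cell, sinusoidal endothelial and stellate cell markers had medians of −0.01, −0.11 and −0.14 (8 of 8, 5 of 7 and 7 of 7 measured), and none passed. The summed Kupffer cell markers ranged from 28.6 to 39.1 under the high-fat diet and from 38.7 to 50.3 under chow. Among them Clec4f at −0.59 and C1qa at −0.45 had every high-fat array below chow (background 9.17%). Cd68, Cd163, Marco and Csf1r had positive estimates. The summed adipocyte markers (4 of 6 measured) ranged from 4.24 to 4.47 under the high-fat diet and from 4.93 to 5.86 under chow. That sum rests mainly on the brightest, Cfd at −0.29 and Cidec at −0.39, beside Fabp4 at −0.12 and Lep at 0.72. Each of these 4 alone overlapped between diets. The summed sinusoidal markers ranged from 40.1 to 45.7 under the high-fat diet and from 47.0 to 48.9 under chow. Of 5 measured skeletal muscle markers, Ckm and Acta1 passed as higher, at least 3.31-fold (limma adjusted p = 0.0029) and at least 1.43-fold (adjusted p = 0.0355), where 3.07% of all features did. Neither was well above background on any chow array, so both entered the test through the high-fat arrays and their p-values are not read as support. Each bound is taken against the dimmest probe well above background on a chow array or the marker's own value, whichever was higher. The other measured muscle markers did not pass, with Myh4 at 0.46, Mb at −0.18 and Actn3 at −0.08. The summed muscle markers overlapped, from 0.80 to 1.34 under the high-fat diet and from 0.78 to 1.23 under chow. Of 3 intestinal markers Fabp2 passed as lower, at −1.04 (limma adjusted p = 0.0132), where 0.49% of all features did. No cholangiocyte, lymphocyte, red blood cell, adipocyte or pancreatic marker passed. The part of cell composition in the values of the 34 genes was not tested.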

How the data were processed

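Liver RNA of 8 rat samples was read on 1-colour Agilent arrays with 44254 spots. Per the file headers and the submitters' processing notes, Agilent Feature Extraction 11.0.1.1 gave the deposited intensity values: a background-subtracted and detrended processed signal, the raw median signal and its local background, and 0 or 1 marks (an other kind of value in the deposited files) for spots above background, saturated or outlying. The authors' value table of the same arrays holds log2 values, with r of 0.995 to 0.999 against log2 of the processed signal and column medians of 6.42. Its columns have nearly equal quantiles, and its normalization and centring are not given in the sources used here.

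Outlier spots and controls were left out, and no probe spot was saturated. The log2 processed signal minus the 75th percentile of each array was averaged over the spots of a probe. Dim probes were dropped, keeping those with a share of 0.5 or more of spots marked as well above background on 3 or more arrays and 2 or more values per diet, which left 22872 features, and each gene was read by its brightest probe. Symbols came from RefSeq accessions through a GRCr8 gene table (18005 of 30367 probes), whereas the array design uses rn4. Diets were compared with limma 3.58.1 in R 4.3.3 (two-sided, Benjamini-Hochberg adjusted over all features, threshold 0.05), and the code was tested on simulated data. Scans were defined by the scan time in the headers. Alternatives were background correction, normalization, probe filters, probe averaging, the authors' table, array weights, scan and replicate blocks, and leaving out each array. The number of arrays limits the precision.

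All members are named. Array values, SE and adjusted p are given for up to 8 mitochondrial and 6 peroxisomal members of smallest p and for 9 fixed ones, and for Crot and other members singled out after their values were seen. Of each other list the genes that passed are named, otherwise the 2 of smallest p, and Ppara. One gene named by this rule is not reported here. The members and lists were chosen with earlier results of these data known.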

Additional observations from a re-analysis of the deposited data

Results flagged for a closer look

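Of 34 genes tested for a single array far from the rest of the 5 high-fat arrays (Dixon's test at its 95% critical value, over 4 high-fat arrays for Etfdh), 1 stood out. Ehhadh on high-fat array 3 had a log2 value of 3.30, and the gap to the next array was 88.8% of the range of the group. The other high-fat arrays lay between 2.11 and 2.24. Chance alone marks about 1 in 20 groups.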

How the results depend on the processing

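Over 22872 features, 815 passed between diets. The count was 149 with normexp (132 higher), 2115 with normexp and quantile normalization, 535 for probes above background on all 8 arrays, 2095 with array weights (724 lower), 71 with scan as a random block (consensus correlation 0.451), 3758 for the scan 1 and 3583 for the scan 3 high-fat arrays against chow, and 2905 for the arrays of the first scan day alone. Leaving out 1 array gave 374 (without chow array 1) to 789, with 454 without high-fat array 2, 439 without chow array 2 and 432 without chow array 3. Quantile normalization (1092), no probe filter (1095), probe means (806) and the authors' table (1140) stayed within 1.5 times.

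Of the 34 members, 0 passed, against 1 under quantile normalization and in the authors' table (Pecr in both), 4 under normexp with quantile normalization (Acadvl and Crat lower, Crot and Pecr higher), 9 with array weights (Cpt2, Acadvl, Acadl, Acaa2, Etfb, Eci1, Decr2, Ehhadh and Eci2, all lower), 5 for scan 1, 3 for scan 3, 2 for the first scan day (Acadvl and Etfb), and 0 to 3 when 1 array was left out, the 3 being without high-fat array 3, where 595 features passed (89 lower). The cause was not tested.

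The mitochondrial median of −0.30 was −0.11 under quantile normalization and in the authors' table, −0.12 under normexp with quantile normalization, −0.41 for scan 1 and for the first scan day, and −0.38 to −0.24 with 1 array left out. The peroxisomal median of −0.39 was −0.14, −0.14 and −0.17 under the same 3 normalizations and −0.61 to −0.29 with 1 array left out.

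The sign changed in 28 of 713 alternative member values, over 8 genes. Cpt1b was −0.198 with normexp, −0.0467 with quantile normalization, −0.132 with both and −0.0481 in the authors' table, and Acadm was 0.0143, 0.130, 0.0890 and 0.132 there and 0.0583 for scan 3. Acad9 was 0.0171 with quantile normalization, 0.0157 in the authors' table and 0.101 for scan 3. Acads was 0.0783 for scan 3, and Acox2 was 0.0795 with normexp and quantile normalization. Etfdh was −0.00497 with array weights and −0.00727 for scan 1 and the first scan day, and Acox3 was 0.00447 with the scan block and 0.0639 for scan 3. With 1 array left out, Cpt1b ranged from −0.00767 to 0.0915, Etfa from −0.0155 to 0.215, Etfdh from −0.00727 to 0.0440, Acox3 from −0.0881 to 0.0920 and Acox2 from −0.612 to 0.177.

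The replicate numbers were not treated as a pairing, since the labels state none. Arrays of the same number correlated at 0.03 to 0.07 in their deviations from the diet means, and not every array correlated best with its own number. Such weak correlations cannot exclude a pairing. With the replicate number as a block, 4 features and 0 members passed, and the medians were −0.33 and −0.32. Of 272 alternative values of the 13 gene pairs, 5 moved by more than the spread. All members were above background on every array.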
